A study of Mus musculus with 8 samples.

Results

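The nuclear receptors are a family of transcription factors, many of which bind a small lipid-soluble ligand such as a steroid, a thyroid hormone, a retinoid, a fatty acid, an oxysterol or a drug. A set of 34 nuclear receptor genes was examined in mouse liver. The clock receptors and Nr1h4, Nr0b2 and Hnf4a were left out of the set, and the rest of its members were taken by gene symbol through the probe names and transcript accessions of the array. All 34 had probes on the array, with 87 probes between them among 149782 non-control probes, and they are 34 of the 21252 gene symbols that the array's probes were matched to. The genes were taken by name, but the set was chosen with earlier results of these data known.

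In liver, the xenobiotic receptors CAR and PXR switch on enzymes and transporters that clear drugs, PPAR alpha drives fatty acid oxidation in fasting, and the LXRs respond to sterols. Many of these receptors bind DNA as partners of a retinoid X receptor. Their activity depends on ligand, on coactivators and on corepressors, so the level of a receptor's mRNA and the level of its target genes are separate quantities.

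The data are from 8 male mice, with 1 one-colour Agilent array per liver. The 4 oxaliplatin livers came from mice given the platinum drug oxaliplatin by intraperitoneal injection once a week for 6 weeks. They model the hepatic sinusoidal obstruction syndrome (HSOS), in which damage to the liver's smallest vessels follows chemotherapy. The 4 control livers came from mice described as normal, with no vehicle injection mentioned. Strain, age and the time between the last injection and tissue collection are not given in the sources used here. RNA was taken from whole liver, so fewer cells of a type and less RNA per cell cannot be told apart.

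Levels below are log2 signals relative to the 75th percentile of each array, and differences are oxaliplatin minus control on that log2 scale, with a standard error from limma and a p-value adjusted over all 13913 genes tested. A gene passed at an adjusted p under 0.05. Between 27.2% and 38.7% of the probes were well above background on the oxaliplatin arrays, against 36.1% to 40.9% on the control arrays. Each slide and scan held 1 group, so slide and treatment cannot be told apart. The run name differs between oxaliplatin replicates 1 and 2 and the other 6 arrays. It was read from a tag in the names of the deposited scans, not from the headers. Of 17 measured targets of p53, which platinum drugs are known to induce, 12 were lower in oxaliplatin livers and none was higher, and directions below follow the labels as given. Whether labels were exchanged was not tested. Hepatocyte markers were higher in oxaliplatin livers for 3 of 7 measured genes (Alb, Ttr and Ahsg) and lower for none, and their mean level was 9.67 to 9.93 in oxaliplatin livers against 9.29 to 9.56 in control livers. Alb passed in 19 of 21 alternative settings, Ttr in 12 and Ahsg in 6. The list median was 0.26, and 0.06 under quantile normalization. None of 8 stellate cell markers, 5 cholangiocyte markers, 5 neutrophil markers or 3 measured B cell markers passed. The mean of the B cell markers was 0.85 to 2.0 in oxaliplatin livers against −1.77 to 0.49 in control livers. Of 7 sinusoidal endothelial markers Lyve1 fell and 6 did not pass (list median −0.01). Of 6 Kupffer cell markers Marco fell, and the other 5 were above 0 without passing (list median 0.50). Of 6 measured T and NK cell markers, Cd3e and Cd3d rose and 4 did not pass, among them Nkg7, Klrb1c and Cd8a at 0.07 to 0.18. Of 4 measured erythroid markers, 3 rose, among them Alas2 and Hba-a1, and Slc4a1 did not pass at −0.37. The groups overlapped for Hba-a1, which passed in 6 of 21 alternative settings. Over all genes tested, 18.6% passed. The part of these cell types in the values below was not tested.

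Few of the receptors differed between the groups. Of the 34, 29 had a probe that passed the filter on dim signal (a signal clearly over background on 4 or more of the 8 arrays) and were tested. Nr4a2, with signal near background, was higher in oxaliplatin livers, Nr1i3 and Pparg were lower, and 26 did not pass. These 3 are 10.3% of the tested members, against 18.6% of all genes tested. By direction, 6.99% of all genes passed as higher and 11.6% as lower. The groups did not overlap for 5 members (17.2%), namely Nr1i3, Pparg, Nr4a2, Ppara and Nr2c1, against 27.7% of all genes. Differences ran between −0.88 for Nr1i3 and 1.18 for Nr4a2, with 9 above 0 and 20 below. Their median was −0.08, against −0.09 over all genes, and the median size of a difference was 0.18 on the log2 scale, against 0.27 over all genes.

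**Figure D1:**
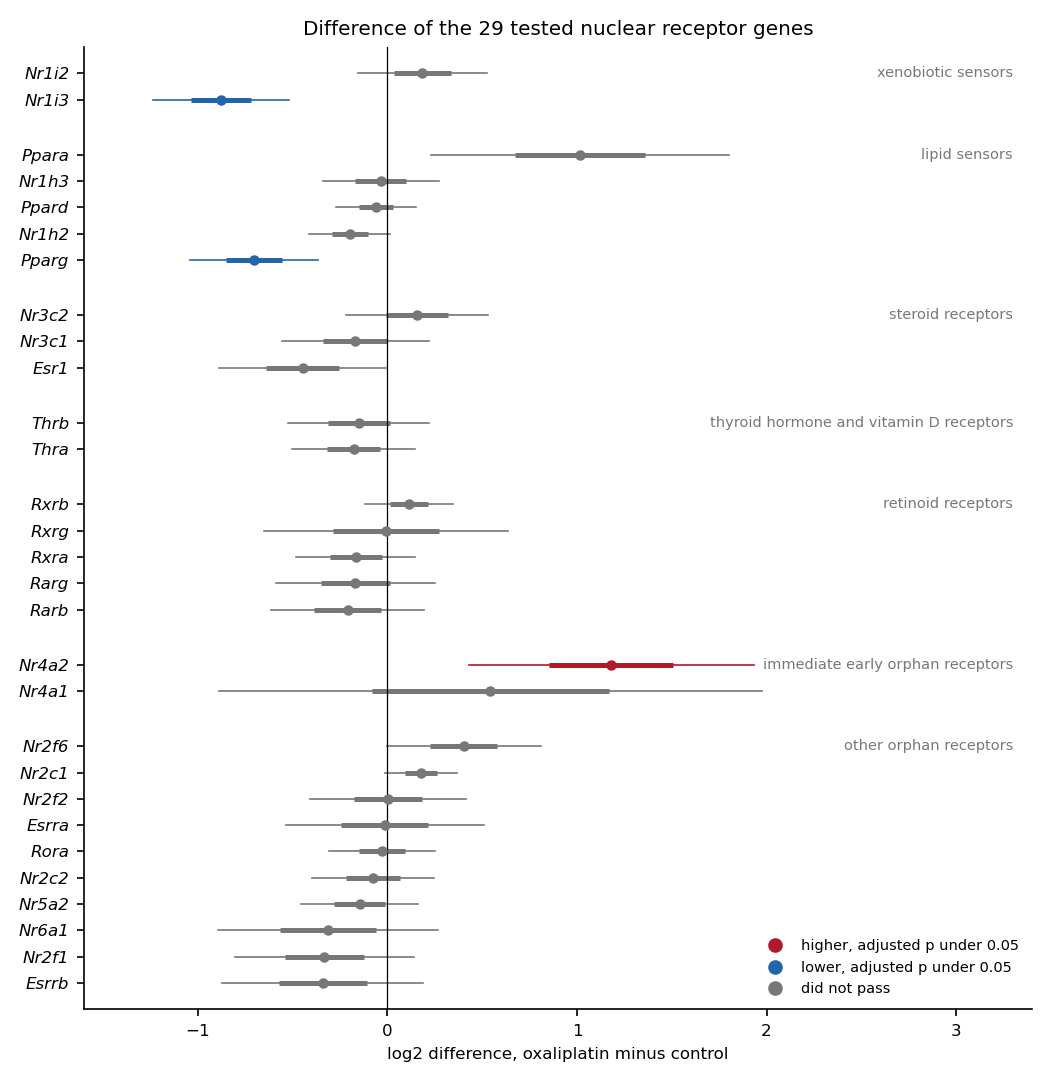
Differences of the 29 tested nuclear receptor genes (log2, oxaliplatin minus control), arranged by the kind of receptor. Points are limma estimates from 4 oxaliplatin and 4 control livers, thick bars 1 standard error and thin lines 95% confidence intervals; colour marks the 1 gene that passed as higher and the 2 that passed as lower.

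The other 5 members stayed below the filter and were not tested. Neither probe of Pgr, the progesterone receptor, or of Nr4a3 was well above background on any array. For Vdr, the vitamin D receptor, and Hnf4g, a paralog of the hepatocyte factor HNF4 alpha, the best probe was well above background on 1 array, a control array in both cases. For Rara, the retinoic acid receptor alpha, the best probe was well above background on 2 control arrays and no oxaliplatin array. No level is compared for these 5 genes.

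The largest fall among the tested receptors was that of Nr1i3, which encodes CAR, the constitutive androstane receptor, a hepatocyte sensor of drugs and bilirubin. Both of its probes passed, and they measure separate stretches of the transcript. Both 60-base probes read through at least 1 frame without a stop codon, share no run longer than 5 bases, and are shown because the lower level was seen with each. The RefSeq gene table places Nr1i3 on chromosome 1, and the first probe lies at chr1:173147776-173147835 on build mm9, while the array file gives no position for the second, which is the brighter and was used for the gene.
Nr1i3 first probe: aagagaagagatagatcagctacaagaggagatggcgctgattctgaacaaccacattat
Nr1i3 second probe: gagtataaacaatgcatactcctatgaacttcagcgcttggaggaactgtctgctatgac

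The second Nr1i3 probe read 5.69, 5.98, 5.93 and 5.48 in the oxaliplatin livers and 6.34, 6.80, 6.84 and 6.61 in the control livers. Every oxaliplatin liver lay below every control liver. The difference was −0.88 ± 0.16 (SE, n = 4 each), a level 1.84-fold lower in oxaliplatin livers, with a limma adjusted p of 0.0109. The first probe read 4.12, 4.41, 4.37 and 3.81 in the oxaliplatin livers and 4.81, 5.02, 5.01 and 4.71 in the control livers, again without overlap. Its difference was −0.71, with an adjusted p of 0.020 in a fit over all 54636 probes that passed the filter, of which 18.4% were called. On the 6 arrays that share 1 run name, 2 of them from oxaliplatin livers, the Nr1i3 difference was −0.94 and the adjusted p 0.062. Within that smaller set the call was lost, and the estimate stayed as large.

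Nr1i2 encodes PXR, the pregnane X receptor, which shares target genes with CAR. It read 5.93, 5.78, 5.92 and 5.47 in oxaliplatin livers and 5.72, 5.82, 5.46 and 5.36 in control livers. The groups overlapped, and the difference of 0.19 ± 0.15 did not pass (adjusted p 0.404, 95% interval −0.16 to 0.53). Of 13 measured targets of CAR and PXR, 4 fell, none rose and 9 did not pass (30.8% passing, against 18.6% of all genes). The list median was −0.16, against −0.09 over all genes. Cyp2b10, the cytochrome P450 used as the standard readout of CAR in mice, read 3.1, 4.32, 4.81 and 4.31 in oxaliplatin livers and 7.87, 8.10, 6.49 and 6.40 in control livers. No oxaliplatin liver reached the lowest control liver, and the difference was −3.08 ± 0.49 (adjusted p 0.0078). The canalicular exporter Abcc2 fell by 0.85 (adjusted p 0.0221) and the basolateral exporter Abcc3 fell by 0.71 (adjusted p 0.0299). The fourth gene that fell was the importer Slco1a4, at −1.17 with an adjusted p of 0.0499, whose groups overlapped. Cyp2b10 passed in 19 of 21 alternative settings, Abcc2 and Abcc3 in 14 each and Slco1a4 in 8. The count of CAR and PXR targets that fell was 1 under the replicate block, with run name as a covariate, or without oxaliplatin replicate 3, oxaliplatin replicate 4 or control replicate 3, and 2 without oxaliplatin replicate 1. Cyp2c55 differed most in the other direction, at 2.47 ± 0.82, and did not pass (adjusted p 0.069). Cyp3a11, the main PXR readout in mouse liver, averaged 10.05 ± 0.32 in oxaliplatin livers and 9.55 ± 0.40 in control livers (SD, n = 4 each), and its difference of 0.50 did not pass (adjusted p 0.154).

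**Figure D2:**
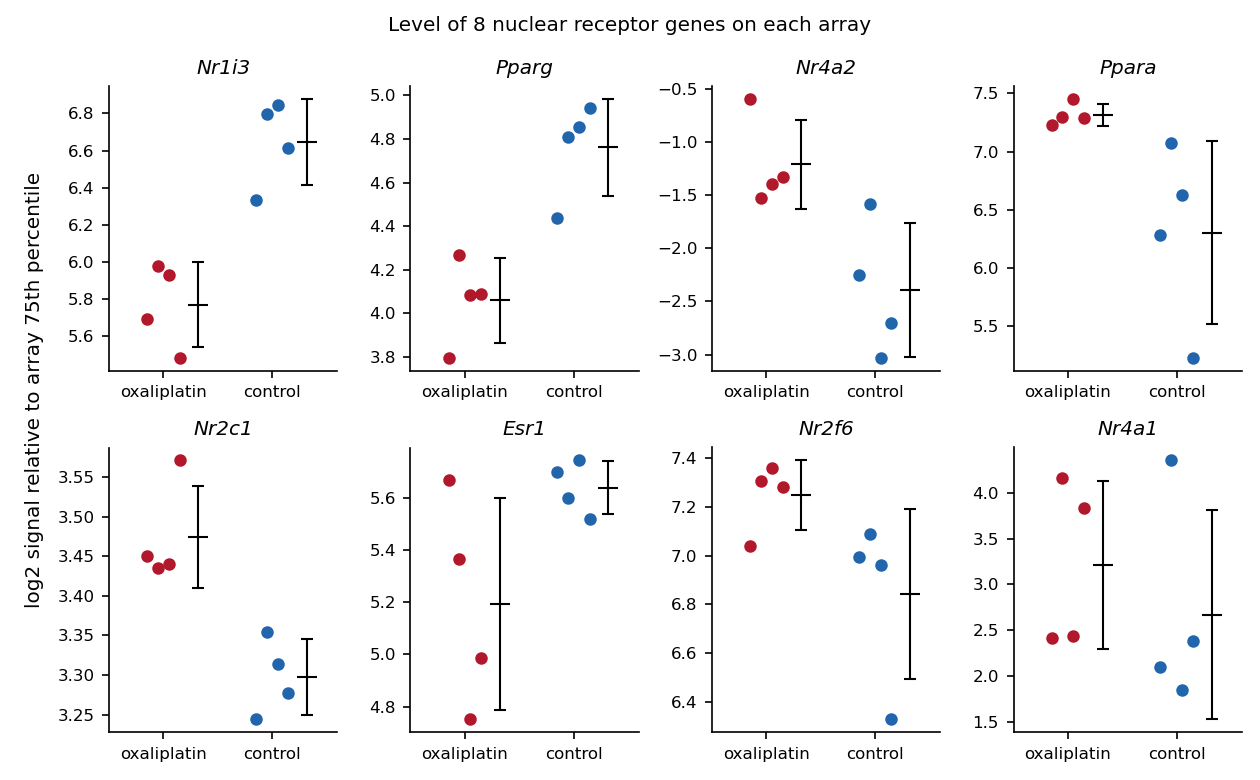
Level of 8 nuclear receptor genes on each array, in log2 units relative to the array's 75th percentile; each panel has its own axis, which does not start at 0. Points are single livers (oxaliplatin red, control blue), and bars give the mean ± SD of 4. The groups separate for Nr1i3, Pparg, Nr4a2, Ppara and Nr2c1 and overlap for Esr1, Nr2f6 and Nr4a1.

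Among the lipid sensors, Pparg fell and Ppara moved the other way without passing. Pparg encodes PPAR gamma, the regulator of fat storage in adipocytes, which has a low level in normal hepatocytes. It read 3.79, 4.27, 4.08 and 4.09 in oxaliplatin livers and 4.44, 4.81, 4.86 and 4.94 in control livers. The highest oxaliplatin liver lay below the lowest control liver, and the difference was −0.70 ± 0.15 (SE, n = 4 each; adjusted p 0.0175), a level 1.63-fold lower in oxaliplatin livers. The second Pparg probe gave −0.69, but it shares 55 of its 60 bases with the first, so the agreement of the pair is not independent. Without oxaliplatin replicate 3 the adjusted p was 0.051, and without control replicate 3 it was 0.052, at differences of −0.71 and −0.67. With run name as a covariate the call was lost as well (−0.68, adjusted p 0.078), as it was on the arrays of the shared run name alone (−0.68, adjusted p 0.079).

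Ppara encodes PPAR alpha, the fatty acid sensor of hepatocytes. It read 7.23, 7.30, 7.45 and 7.28 in oxaliplatin livers and 6.28, 7.07, 6.62 and 5.23 in control livers. The 4 oxaliplatin livers lay close together and above all control livers, which were spread over 1.84 log2 units. The difference of 1.01 ± 0.34 (SE, n = 4 each; 95% interval 0.23 to 1.80) did not pass, with an adjusted p of 0.0725. A separate Ppara probe at chr15:85631955-85632014 (mm9), which shares no run over 4 bases with the first, gave 0.93 (adjusted p 0.081) and reached 6.85 in 1 control liver, the level of the lowest oxaliplatin liver. Without control replicate 4, the lowest liver, the difference was 0.66 with an adjusted p of 0.048, and without control replicate 2 it was 1.27 with an adjusted p of 0.034. With normexp background correction it was 0.98 with an adjusted p of 0.049. It did not pass in the other 18 alternative settings, and the direction was the same in all 21.

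Of 16 measured PPAR alpha targets, 2 rose, none fell and 14 did not pass. That is 12.5% passing, against 18.6% of all genes, and the count rests on single livers. It was 10 of 16 without control replicate 2, 3 without control replicate 4, 1 without oxaliplatin replicate 1 or 2, and 0 without oxaliplatin replicate 3, oxaliplatin replicate 4 or control replicate 3. The list median was 0.70 to 1.28 over these settings. None passed under the replicate block or with run name as a covariate. The median difference of the list was 0.99, against −0.09 over all genes, and 14 of its 16 genes were above 0. Fabp1, the liver fatty acid binding protein, read 10.44, 10.27, 10.27 and 10.31 in oxaliplatin livers and 9.37, 9.61, 9.15 and 8.04 in control livers. As with Ppara, the oxaliplatin livers were tightly grouped and control replicate 4 was lowest. The Fabp1 difference was 1.28 ± 0.31 (adjusted p 0.0262). Slc25a20, the carrier that brings acylcarnitines into mitochondria, rose by 1.38 ± 0.34 (adjusted p 0.0288). Both genes passed in 12 of 21 alternative settings, and neither passed with run name as a covariate, where no gene of the list did. Fgf21, a fasting hormone, averaged 2.53 ± 1.18 in oxaliplatin livers and −0.40 ± 1.95 in control livers (SD, n = 4 each) and did not pass at a difference of 2.93 (adjusted p 0.068).

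The other 3 lipid sensors differed little. Nr1h3, which encodes LXR alpha, had a difference of −0.04 ± 0.13 (95% interval −0.34 to 0.27), and Ppard, which encodes PPAR delta, had −0.06 ± 0.09 (95% interval −0.27 to 0.15). Nr1h2, which encodes LXR beta, read 3.73 to 3.89 in oxaliplatin livers and 3.85 to 4.12 in control livers, with a difference of −0.20 ± 0.09 (adjusted p 0.165). Its other probe gave −0.33 and passed in the fit over probes (adjusted p 0.044). Of 10 LXR targets, 1 rose and none fell (10% passing, against 18.6% of all genes). Mylip, a ubiquitin ligase that degrades the LDL receptor, was higher by 0.43 (adjusted p 0.0223; 13 of 21 alternative settings, with differences of −0.20 to 0.54), and the list median was −0.32.

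None of the 3 steroid receptors that could be tested passed. Esr1, the estrogen receptor alpha, read 5.67, 5.37, 4.75 and 4.99 in oxaliplatin livers and 5.70, 5.60, 5.74 and 5.52 in control livers. Control livers lay within a narrow band. Oxaliplatin replicate 1 was inside it, replicate 2 lay below it, and replicates 3 and 4 lay furthest below. Replicates 1 and 2 have the other run name, and its part in this spread was not tested. The pooled difference was −0.45 ± 0.19 (adjusted p 0.133). With run name as a covariate it was −0.77 (adjusted p 0.028), and on the arrays of the shared run name alone it was −0.77 (adjusted p 0.040). Without oxaliplatin replicate 1 it was −0.61 (adjusted p 0.049). The Esr1 probes at −0.45 and −0.65 were well above background on all 8 arrays. The one at −0.65, at chr10:5343056-5343115 (mm9), passed in the fit over probes (adjusted p 0.048). Another probe, at −0.87, was well above background on 4 control arrays and 0 oxaliplatin arrays. It passed the filter through the control group alone, so its difference is not counted as agreement.

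Nr3c1 encodes the glucocorticoid receptor. It read 4.17, 4.63, 4.88 and 4.90 in oxaliplatin livers and 4.87, 4.84, 4.90 and 4.65 in control livers, and only oxaliplatin replicate 1 stood clearly below the control range. The difference was −0.17 ± 0.17 (adjusted p 0.503). Nr3c2, the mineralocorticoid receptor, had a difference of 0.16 ± 0.16 (adjusted p 0.519). Its further probes above the filter gave −0.61 and 0.47, and neither passed in the fit over probes. Of 12 glucocorticoid receptor targets, 3 fell, 1 rose and 8 did not pass (33.3% passing, against 18.6% of all genes). The list median was −0.74, against −0.09 over all genes. Klf9, a transcription factor also induced by thyroid hormone, read 4.61, 4.61, 4.61 and 4.66 in oxaliplatin livers and 5.52, 5.47, 5.36 and 5.61 in control livers. The difference of −0.87 ± 0.09 was large against a spread of 0.03 among oxaliplatin and 0.10 among control livers (SD, n = 4 each), with an adjusted p of 0.0023. The kinase gene Sgk1 fell by 1.09 (adjusted p 0.0102) and the clock gene Per1 fell by 1.64 (adjusted p 0.0151). The gene that rose was Pck1, which encodes a rate-limiting enzyme of gluconeogenesis, at 0.34 ± 0.09 (adjusted p 0.0415), and it passed in 5 of 21 alternative settings. Klf9 and Per1 passed in all 21.

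On the probes used, the thyroid hormone receptors gave small negative differences that did not pass. Thra, the alpha receptor, had −0.18 ± 0.14 (95% interval −0.50 to 0.15) and Thrb, the beta receptor and the main form in hepatocytes, had −0.15 ± 0.16 (95% interval −0.52 to 0.22). The sign depended on the probe. Above the filter, 1 of 3 Thra probes (0.16) and 1 of 4 Thrb probes (0.09) were above 0. Of 6 measured thyroid hormone receptor targets, Klf9 fell and Dio1 rose (33.3% passing, against 18.6% of all genes). Dio1, the deiodinase that activates thyroid hormone in liver, read 5.27, 6.35, 6.35 and 5.79 in oxaliplatin livers and 2.62, 4.86, 2.66 and 0.17 in control livers. Control livers differed among themselves by over 4 log2 units, and the difference of 3.36 ± 0.84 passed at an adjusted p of 0.0305 and in 12 of 21 alternative settings. The list median was 0.08.

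None of the 5 retinoid receptors tested passed. Rxra, Rxrb and Rxrg encode the retinoid X receptors, the shared partners of CAR, PXR, the PPARs and the LXRs, and their differences were −0.17 ± 0.14, 0.11 ± 0.10 and −0.01 ± 0.28. The wide error of Rxrg came with a control range of 2.35 to 3.74, against 3.0 to 3.44 in oxaliplatin livers, and control replicate 4 was the lowest. Rarb and Rarg, 2 retinoic acid receptors, had differences of −0.21 ± 0.18 and −0.17 ± 0.18. Of 7 retinoic acid receptor targets, 2 fell, none rose and 5 did not pass (28.6% passing, against 18.6% of all genes). The list median was −0.02. Both that fell encode enzymes that degrade retinoic acid. Cyp26a1 read 1.19, 2.41, 1.75 and 3.86 in oxaliplatin livers and 5.50, 4.05, 4.24 and 4.89 in control livers, a difference of −2.37 ± 0.57 (adjusted p 0.0265). Cyp26b1 fell by 1.78 ± 0.47 (adjusted p 0.0355). Cyp26a1 passed in 12 and Cyp26b1 in 8 of 21 alternative settings. No gene of the list passed as lower under the replicate block, with run name as a covariate, or on leaving out any single array other than control replicate 2 (1 gene) and oxaliplatin replicate 4 (2 genes).

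The NR4A receptors are orphan factors whose genes respond within minutes to hours to stress, fasting signals and cytokines. Nr4a2, also called Nurr1, was the only member that passed as higher. Its one probe above the filter lies at chr2:56960699-56960758 (mm9) and reads through 1 frame without a stop; its sequence is shown because the call rests on this probe alone.
Nr4a2 probe: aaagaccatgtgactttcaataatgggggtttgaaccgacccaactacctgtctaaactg

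Nr4a2 read −0.60, −1.53, −1.40 and −1.33 in oxaliplatin livers and −2.25, −1.58, −3.03 and −2.70 in control livers. The groups did not overlap, but the lowest oxaliplatin liver and the highest control liver were 0.05 apart. The probe was well above background on 3 of 4 oxaliplatin arrays and 1 of 4 control arrays, so most of the control values lie at background. Of the 4 arrays the filter asks for, 3 were thus oxaliplatin arrays. The lowest signal well above background averaged −1.18 on oxaliplatin arrays and −1.85 on control arrays, so the floor also differs by group. The part of this floor in the Nr4a2 difference was not tested. The difference was 1.18 ± 0.33 (SE, n = 4 each; adjusted p 0.0407). With a normexp background correction it was 0.25 (adjusted p 0.068), and the call was kept in 5 of 20 alternative settings. It was lost on leaving out 7 of the 8 arrays in turn, at adjusted p values of 0.065 to 0.097.

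Nr4a1, also called Nur77, had the widest spread of all 29 tested members. It read 2.41, 4.17, 2.44 and 3.84 in oxaliplatin livers and 2.10, 4.35, 1.84 and 2.38 in control livers. High livers occurred in both groups, with 2 in the oxaliplatin group and 1 in the control group. The difference of 0.54 ± 0.63 did not pass (adjusted p 0.566), with a 95% interval of −0.89 to 1.98 that spans 0 widely.

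None of the 10 other orphan receptors tested passed. Nr2c1, which encodes the testicular receptor TR2, read 3.45, 3.44, 3.44 and 3.57 in oxaliplatin livers and 3.24, 3.35, 3.31 and 3.28 in control livers. The groups did not overlap, the SD was 0.06 among oxaliplatin and 0.05 among control livers, and the difference was 0.18 ± 0.08 (adjusted p 0.161). It passed under quantile normalization (0.27, adjusted p 0.042), with the 75th percentile over detected probes (0.29, adjusted p 0.035) and in the deposited series matrix values (0.27, adjusted p 0.042). Nr2f6, a COUP-TF relative also called EAR2, read 7.04, 7.31, 7.36 and 7.28 in oxaliplatin livers and 7.0, 7.09, 6.96 and 6.33 in control livers. Oxaliplatin replicate 1 lay below control replicate 2, and the difference of 0.40 ± 0.18 did not pass (adjusted p 0.139).

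The other 8 had differences of −0.34 to 0.00. Among them, Nr5a2, which encodes LRH-1, a regulator of bile acid synthesis, had −0.15 ± 0.13, and Esrra, which encodes ERR alpha, a partner of PGC-1 alpha in mitochondrial gene expression, had −0.01 ± 0.23. Nr2f2, which encodes COUP-TFII, a factor of venous endothelium, read 4.51 to 4.75 in oxaliplatin livers and 4.11 to 5.01 in control livers, at a difference of 0.00 ± 0.18. Nr2f1, Nr6a1 and Esrrb had differences of −0.33 ± 0.21, −0.31 ± 0.25 and −0.34 ± 0.23, and their groups overlapped. Rora and Nr2c2 were at −0.03 ± 0.12 and −0.08 ± 0.14.

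For 9 of the 29 members the probes above the filter differed in sign. There were 39 such further probes beside the 29 used, and 7 of them passed in the fit over probes, 6 lower and 1 higher. Over all 54636 probes above the filter, 18.4% were called in that fit. Rxra was measured by 3 probes with differences of −0.17, 0.00 and −0.61. The last, at chr2:27615316-27615375 (mm9), read 2.25, 2.15, 2.05 and 2.28 in oxaliplatin livers and 2.78, 2.63, 2.85 and 2.88 in control livers, and passed without overlap (adjusted p 0.010). Rora was measured by 4 probes, of which 3 were at −0.03, −0.30 and −0.42 and one at chr9:69233105-69233164 (mm9) was at 0.44. That probe read −0.30, −0.24, 0.04 and −0.29 in oxaliplatin livers and −0.64, −0.65, −0.46 and −0.79 in control livers, and it passed as higher (adjusted p 0.041). Of 5 Nr3c1 probes, 1 passed as lower at −0.68 (adjusted p 0.047), while the other 4 lay between −0.17 and 0.04. The probes of Rxra, Rora and Nr3c1 thus gave unlike differences. So did those of Nr3c2 (0.16, −0.61 and 0.47), Thrb (−0.54 to 0.09) and Rarg (−0.17 and −0.85), none of which passed. The Rarg probe at −0.85 was well above background on 1 oxaliplatin and 4 control arrays. For the Nr3c2 probe at −0.61 it was 1 oxaliplatin and 3 control arrays. Whether parts of these transcripts differ was not tested. Outside Nr3c1, which was left out of this comparison, no run longer than 11 bases was shared between probes of different members.

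**Figure D3:**
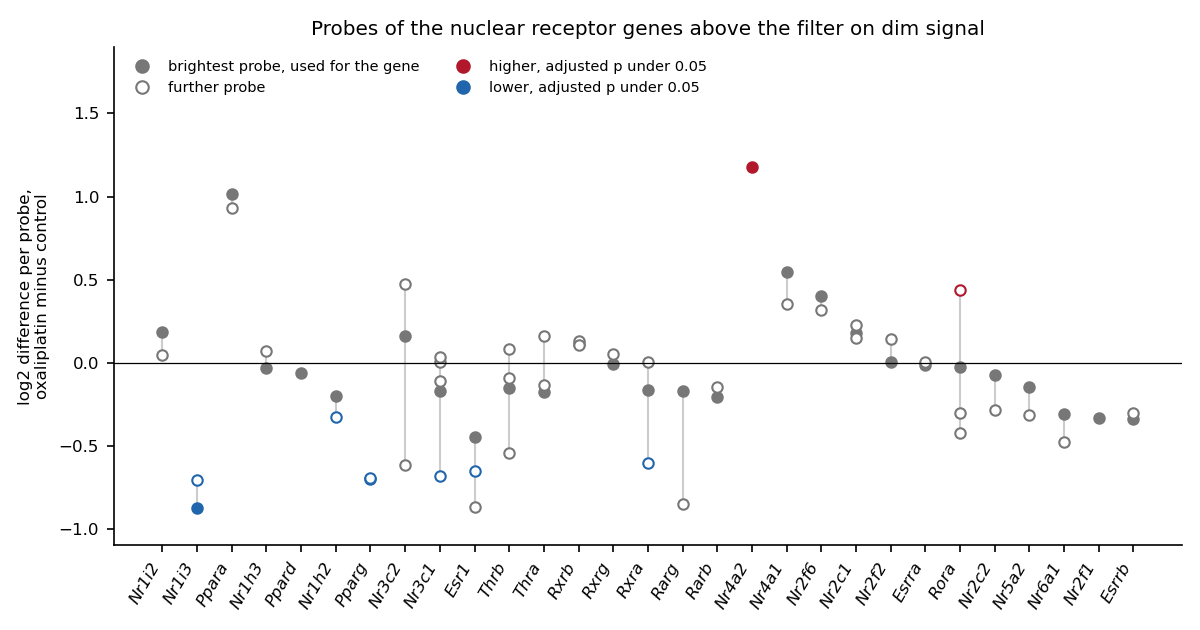
Difference (log2, oxaliplatin minus control) of each probe of the nuclear receptor genes that passed the filter on dim signal, 68 probes of 29 genes. Filled points are the brightest probe, used for the gene, and open points the others; red and blue mark probes with an adjusted p under 0.05 in the fit over all probes. Probes of Nr3c2 and Rora lie on both sides of 0 and far apart, while both probes of Nr1i3 and of Pparg lie together.

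The receptors also varied between livers of a group. The median within-group SD of the 29 members was 0.24 on the log2 scale, against 0.22 over all genes tested. The SD among control livers was larger than among oxaliplatin livers for 19 of 29 members (65.5%), close to the share over all genes (64.7%). Control replicate 4 was the lowest control liver for 15 of 29 members, against 38.9% of all genes, and these included Ppara, Rxrg, Nr2f2, Nr2f6 and Esrra. Oxaliplatin replicate 1 was the lowest oxaliplatin liver for 14 of 29, close to the share over all genes (46.0%). Pooled SDs ran between 0.06 for Nr2c1 and 1.04 for Nr4a1, with Ppara next at 0.56, its oxaliplatin SD being 0.09 and its control SD 0.79.

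**Figure D4:**
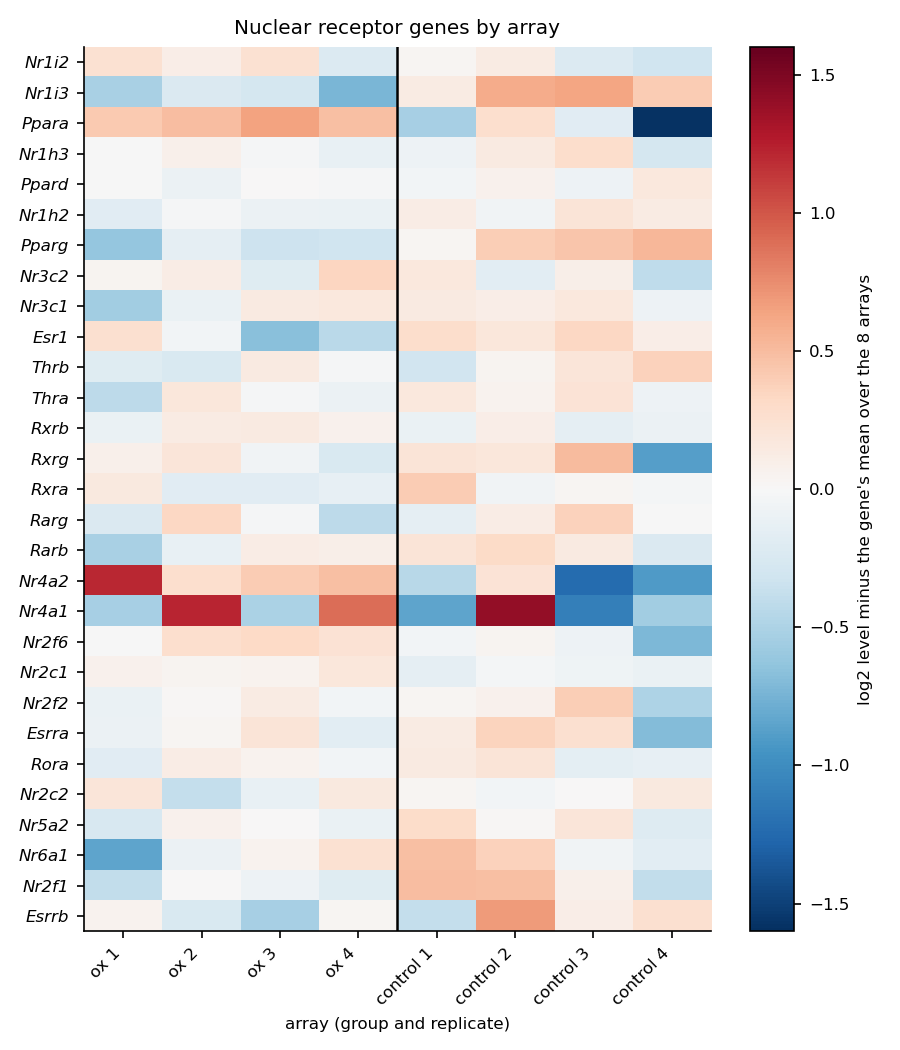
Level of the 29 tested nuclear receptor genes on each of the 8 arrays, as the log2 level minus the gene's mean over all arrays. Oxaliplatin livers are left of the line and control livers right of it; red is above and blue below the gene's mean. Nr1i3 and Pparg change colour at the line, Nr4a1 varies within both groups, and control replicate 4 is low for Ppara, Rxrg, Nr2f6 and Esrra.

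Transcripts of the receptors' coactivators and corepressors were lower in oxaliplatin livers where they passed. Of 16 coactivators, 4 fell, none rose and 12 did not pass, and the list median was −0.14. Trim24, a bromodomain protein that binds several nuclear receptors and can also repress retinoic acid signalling, read 4.74, 4.36, 4.56 and 3.98 in oxaliplatin livers and 5.70, 5.56, 5.98 and 6.12 in control livers. Its difference was −1.43 ± 0.19 (adjusted p 0.0050). Ppargc1a, which encodes PGC-1 alpha, the coactivator of the fasting response, read 2.68, 2.56, 2.71 and 2.45 in oxaliplatin livers and 4.22, 3.80, 3.31 and 3.29 in control livers, and fell by 1.05 ± 0.21 (adjusted p 0.0151). Ncoa4, which also serves as the receptor for ferritin breakdown, fell by 0.89 and Ncoa6 by 0.52 (adjusted p 0.0213 each). The p160 coactivators Ncoa1, Ncoa2 and Ncoa3 had differences of −0.02, −0.30 and 0.03 that did not pass. Of 9 measured corepressors, Gps2 and Sin3a fell, by 0.45 each (adjusted p 0.0319 and 0.0463), and Ncor1, a central corepressor of unliganded receptors, was at 0.05. The shares passing were 25% of coactivators and 22.2% of corepressors, against 18.6% of all genes. Trim24 passed in all 21 alternative settings, Ppargc1a in 18, Ncoa4 in 13, Ncoa6 in 11, Gps2 in 8 and Sin3a in 4. The count of coactivators that fell was 1 under the replicate block and with run name as a covariate, and 2 without oxaliplatin replicate 2, 3 or 4. No corepressor passed in those settings.

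**Figure D5:**
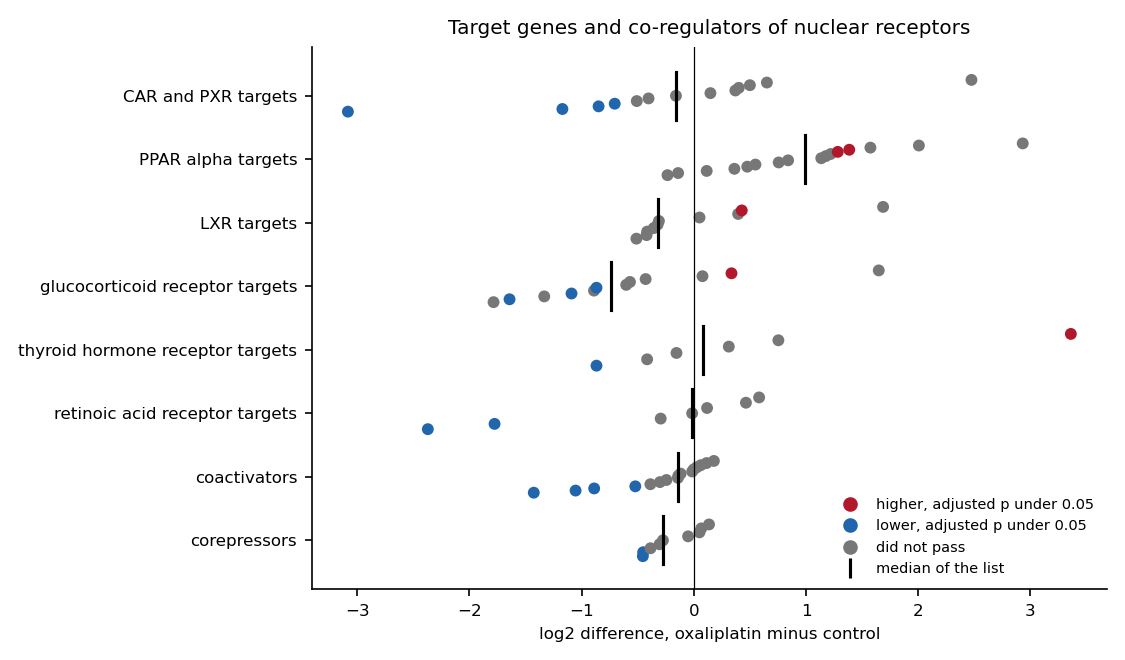
Differences (log2, oxaliplatin minus control) of measured target genes of nuclear receptors and of their coactivators and corepressors, 1 point per gene. Black marks are list medians, which run between −0.74 for glucocorticoid receptor targets and 0.99 for PPAR alpha targets; blue points fell and red points rose at an adjusted p under 0.05. Klf9 stands in both the glucocorticoid and the thyroid hormone list.

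A further 10 nuclear receptor genes outside the set were looked up, of which 4 were tested. Esrrg, which encodes ERR gamma, rose by 1.2 ± 0.30 (adjusted p 0.0316), at 0.71, −0.25, 0.02 and −0.47 in oxaliplatin livers and −1.01, −0.63, −1.39 and −1.73 in control livers. The groups did not overlap. Esrrg was well above background on 4 oxaliplatin and 3 control arrays, so its control values lie near background. The gene passed in 9 of 20 alternative settings, with differences of 0.42 to 1.38. Nr5a1, which encodes the steroidogenic factor SF-1, did not pass, at −0.38.

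Many nuclear receptors bind the half-site AGGTCA, so the 250 bases before the annotated starts of the members were searched for it on both strands. RefSeq promoter windows (GRCm38.p6) were at hand for 31 members outside Nr3c1, 47 windows in all, and 8 of them (17.0%) held a match, against 14.0% of 32851 windows of all genes. The windows of Nr1i3, Ppara and Nr4a2 held none, and 2 of the 3 Pparg windows held 1 each. A match in these windows is a description of the letters and says nothing of binding.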

How the data were processed

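RNA of 8 livers was measured on 8 one-colour arrays. Per the file headers, the processed signal deposited by the authors is a background-subtracted intensity on a linear scale from Feature Extraction 12.0.3.1; per the submitters' processing notes, Agilent Feature Extraction 10.7 and limma were used. The deposited series matrix holds log2 values whose normalization is not stated, used as an alternative; the authors' deposited flags (score 0 or 1) mark spots well above background or irregular. The signals were taken to log2, each array's 75th percentile over non-control probes was subtracted, and outlier spots were left out (none among the members). Probes well above background on at least 4 of 8 arrays were kept (54636), named by accession (47985 of 48257 matched, GRCm38.p6, names only), and the brightest per symbol was used. The 2 groups of 4 went into a linear model in limma 3.58.1 (R 4.3.3; lmFit, then eBayes, with 6 residual and 2.37 prior degrees of freedom), and p-values were adjusted by Benjamini-Hochberg. Fit code was tested on simulated data. The number of arrays limits the precision; labels call the replicates biological.

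Members, lists and alternatives were chosen with earlier results of these data known. Every member was accounted for; those that passed or did not overlap, and others of interest after their values were seen, are given per array. From each list, genes that passed are named, smallest p first, with known non-passing members added; a few genes of these lists are not reported here. Same-numbered livers of both groups did not deviate together (r −0.32 to −0.08), so numbers were not taken as pairs.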

Additional observations from a re-analysis of the deposited data

Results flagged for a closer look

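A liver stood far from the others of its group in 3 of 58 tests of single members within a group of 4, by a gap whose share of the group's range is above Dixon's 95% critical value; chance gives about 1 in 20. Nr2c1 was highest in oxaliplatin replicate 4, at 3.57 against 3.45 for the next liver. Rxra was highest in oxaliplatin replicate 1, at 7.75 against 7.47 for the next. Nr2f6 was lowest in control replicate 4, at 6.33 against 6.96 for the next.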

How the results depend on the processing

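Over 21 alternative settings, the Nr1i3 fall passed in 20, the Pparg fall in 17, and the Nr4a2 rise in 5 of the 20 that tested it; all 3 kept their direction. Centring on the median of all non-control probes, where signal is at background, moved the median of all genes to −0.71 and gave 9917 called genes, with 0 members higher and 24 lower; Nr1i2 (−0.44), Nr2c1 (−0.45), Nr2f2 (−0.62), Nr3c2 (−0.47) and Rxrb (−0.51) then passed with the opposite sign, and Nr2f6 (−0.22) and Nr4a1 (−0.08) took it without passing, as this centring lowers all differences alike. Centring on detected probes, added after seeing the data, gave 2357 genes, 1 member higher and 2 lower. Members higher were 2 with the 75th percentile over detected probes and 0 with all 8 arrays above background, a mean-variance trend, the replicate block or run name as a covariate. Genes called were 4114 without the filter, 529 with the replicate block, 920 with run name as a covariate and 515 on the arrays of the shared run name, where 0 members were higher and 1 lower. Leaving out 1 array gave 1015 to 2335 genes, 0 to 2 members higher and 1 to 3 lower; the fewest genes came without oxaliplatin replicate 3, and Pparg was lost without it or control replicate 3. The replicate block kept Nr1i3 (adjusted p 0.038) and Pparg (0.043) and lost Nr4a2 (0.082). Of the genes called, the percentage higher was 37.6% in the main setting and 21.3% (normexp), 50% (quantile), 47.7% (detected median), 60.5% (detected percentile), 49.3% (series matrix), 67.6% (no filter) and 2.32% (median of all probes) in others. Causes of lost calls were not tested. Nr4a2 and the 5 untested members are limited by signal near background.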
